A study of Mus musculus with 4 samples.

Results

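The genes described here are 9 leukocyte integrin and adhesion molecule genes, measured in 4 RNA-seq libraries of mouse macrophages. They are Itgb2, Itgam, Itgal, Itgb1, Itga4, Itgb7, Itgav, Icam1 and Vcam1, a list chosen by function, out of 24104 gene symbols or unnamed accessions listed. All 9 were found, each with an accepted estimate in every library. The study asks how loss of the transcription factor Batf2 bears on macrophage activation. The cells came from bone marrow of C57BL/6 mice kept with GM-CSF (10 ng/ml), a myeloid growth factor, and what had attached to the dish by day 6 was used as macrophages. The 4 groups were Batf2-/- cells (KO) at 3 h of lipopolysaccharide (LPS, a bacterial cell wall component), wild-type Batf2+/+ cells (WT) at 3 h, KO cells at 0 h and WT cells at 0 h. Per the labels, every group was first given 10 ng/ml interferon-gamma over 4 h, and LPS was used at 100 ng/ml. Each group holds 1 library from 1 culture, with no statement of how many mice gave it, and the labels do not say which part of Batf2 is deleted. Levels are FPKM, a read density corrected for transcript length and library size, so that genes can be compared. The 95% intervals in parentheses are those of the deposited tables, recentred on the FPKM at unchanged relative width. They cover counting and read assignment in 1 library and not the spread between cultures, so no test was possible and none was run.

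Integrins are cell surface receptors made of 1 alpha and 1 beta chain, which bind matrix proteins or other cells once signals from inside the cell switch them to an extended form. Leukocytes use the beta 2 family (CD11/CD18) to bind ICAM-1 and complement fragments, and the alpha 4 integrins to bind VCAM-1, fibronectin or MAdCAM-1, for arrest on vessel walls, contact with T cells and phagocytosis. The ligands ICAM-1 and VCAM-1 are immunoglobulin superfamily proteins, best known from inflamed endothelium and also made by macrophages.

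Batf2 had 10.1 FPKM (8.89 to 11.3) in KO and 234.3 (225.6 to 242.9) in WT at 3 h, and 0.26 (0.099 to 0.42) in KO and 2.63 (1.86 to 3.39) in WT at 0 h, so the genotype labels and the Batf2 values point the same way. Depth relative to the WT library at 3 h, read from interval widths, was 1.47 for KO at 3 h, 1.35 for KO at 0 h and 1.19 for WT at 0 h. The total number of reads is unknown from the files. All 8 macrophage markers, among them Csf1r, Cd68 and Lyz2, had an FPKM of at least 1 in each library. The interferon-gamma target Cxcl9 had 1058 FPKM in KO and 1249 in WT at 3 h, against 0.12 in KO and 0.62 in WT at 0 h, and Irf1 had 370.3 in KO and 419.3 in WT at 3 h, against 12.6 in KO and 12.4 in WT at 0 h. The level of these targets at 0 h is low for cells labelled as pretreated with interferon-gamma. A difference between 3 h and 0 h can therefore not be assigned to LPS alone, and it is called here by its times. In bulk RNA, fewer cells of a type and less RNA per cell cannot be told apart.

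Across the 9 genes, levels spanned from 4.84 FPKM (Itgb7 in KO at 0 h) to 1053 FPKM (Itgb2 in WT at 0 h). Itgb2 was the highest and Itgb7 the lowest in each of the 4 libraries. At 3 h the order in KO was Itgb2, Icam1, Itgam, Itgb1, Itgal, Vcam1, Itga4, Itgav and Itgb7, and WT differed from it in that Itgal stood before Itgb1, with overlapping intervals. At 0 h Itgam took the second place and Itgb1 the third, and Icam1 followed in the fourth. Below them came Itgal, and then a cluster of low genes at 8 to 12 FPKM, in which the interval of Itga4 in KO overlapped that of Itgav above it and that of Vcam1 below it, while Itgav and Vcam1 did not overlap. All other neighbours in these orders had intervals that did not overlap. The words rose and fell are used only of genes past a size rule, which asks for a difference of 1 or more in log2(FPKM + 1), about 2-fold, with 1 FPKM or more in either library and deposited intervals that stay apart.

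**Figure D1:**
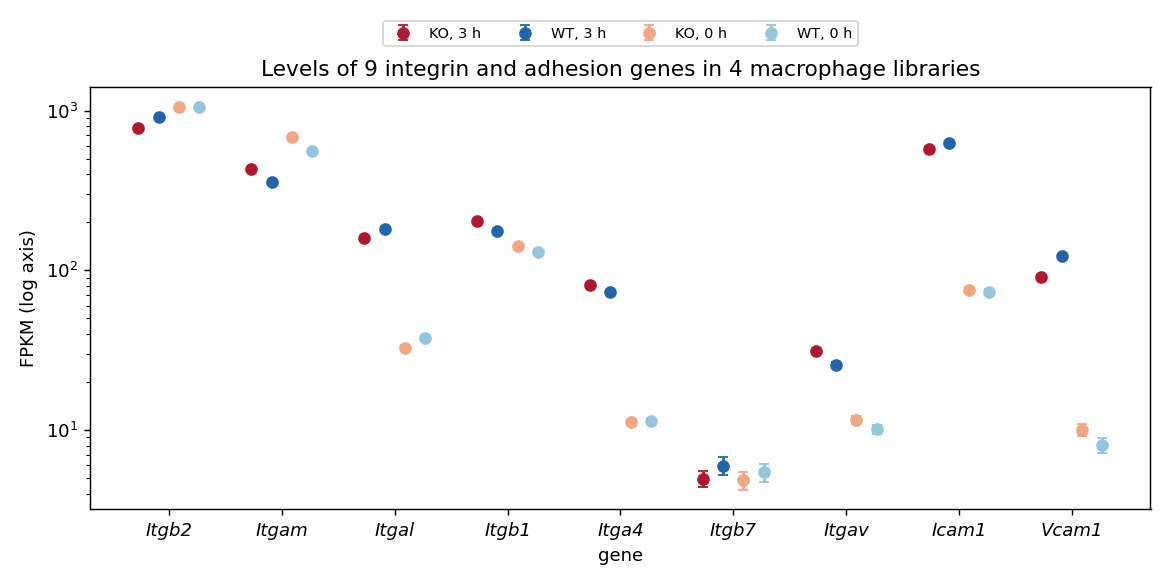
FPKM on a log axis of the 9 genes in the 4 libraries, 1 point per library, with bars for the deposited 95% interval, which are mostly narrower than the points. Itgal, Itga4, Itgav, Icam1 and Vcam1 stood higher in both 3 h libraries than in both 0 h libraries, and the KO and WT points of 1 time lie close together for each gene.

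Between 3 h and 0 h, 5 of the 9 genes rose in KO and the same 5 in WT, namely Vcam1, Icam1, Itga4, Itgal and Itgav, and none fell. Over all genes tested, 7.85% rose and 28% fell in KO, and 7.55% rose and 23.2% fell in WT. The median difference of the 9 genes was 1.35 in KO and 1.25 in WT on the log2(FPKM + 1) scale, against -0.64 in KO and -0.54 in WT over all genes. The 9 genes were listed with earlier results of these data known, so these counts describe them and support nothing further.

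The beta 2 chain Itgb2 (CD18), the common partner of the CD11 alpha chains, was abundant throughout. Itgb2 had 775.2 FPKM (767.5 to 782.8) in KO and 910.8 (900.8 to 920.9) in WT at 3 h, against 1047 (1038 to 1056) in KO and 1053 (1043 to 1062) in WT at 0 h. Both 3 h libraries lay below both 0 h libraries, with KO at 3 h the lowest of all. The difference between times was -0.43 in KO and -0.21 in WT, under the size rule, and it turned to 0.04 in KO and 0.16 in WT when libraries were rescaled by the median ratio over 5605 genes. That rescaling adds 0.47 in KO and 0.37 in WT to every difference between times, so a small drop at 3 h is a statement about FPKM as deposited only. Itgb2 lies on chromosome 10 at 77530329 to 77565708 in the RefSeq gene table (GRCm38.p6).

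Itgam (CD11b) is the alpha chain of Mac-1, a complement receptor, and a standard marker of myeloid cells. It had 431.3 FPKM (426.1 to 436.6) in KO and 356.5 (350.3 to 362.6) in WT at 3 h, against 681.4 (674.7 to 688.1) in KO and 562.1 (555.6 to 568.6) in WT at 0 h. The KO library was the higher one at each time, and both 3 h libraries were below both 0 h libraries. The difference between times was -0.66 in KO and -0.66 in WT. It did not pass the size rule, lay near the median of all genes, and kept its sign after rescaling (-0.19 in KO and -0.28 in WT). Itgam is on chromosome 7 at 128062640 to 128118491. The 250 bases before its RefSeq start, printed as the upstream sequence of the main myeloid alpha chain, lie at chr7:128062390-128062639 (forward strand, GRCm38.p6). Capitals mark the letters GAGGAA on either strand, a purine-rich core that the myeloid factor PU.1 is known to bind.
Itgam: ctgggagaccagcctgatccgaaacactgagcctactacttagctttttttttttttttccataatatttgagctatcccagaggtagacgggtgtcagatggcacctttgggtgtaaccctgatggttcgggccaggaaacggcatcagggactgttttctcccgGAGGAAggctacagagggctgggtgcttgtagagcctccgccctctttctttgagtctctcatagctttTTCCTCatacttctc
The matches lie 84 to 79 and 15 to 10 bases upstream. Of 32851 promoter windows of the same length in the RefSeq table, 23.3% hold these 6 letters on a strand, so a match is common, and it describes the sequence and not binding.

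Itgal (CD11a), the alpha chain of LFA-1, which binds ICAM-1 in contacts with T cells, rose in both genotypes. Itgal had 159.2 FPKM (156.3 to 162.1) in KO and 182.3 (178.4 to 186.1) in WT at 3 h, against 32.6 (31.2 to 33.9) in KO and 37.8 (36.2 to 39.4) in WT at 0 h. No 0 h value came near a 3 h value, and KO stood slightly below WT at 3 h. At 0 h the order of the genotypes depended on how reads were split between transcript entries, with a KO minus WT difference of -0.21 for the sum of entries and 0.12 for the highest entry alone. The ratio of 3 h to 0 h was 4.89 in KO (interval 4.67 to 5.12) and 4.82 in WT (4.60 to 5.06). Only 2.98% of genes in KO and 2.90% in WT had as high a difference. Itgal lies on chromosome 7 at 127296139 to 127335137, 727.5 kb from Itgam, while Itgax and Itgad lie 11 and 55.4 kb beyond Itgam on the other side. Itgax (CD11c), which marks dendritic cells and GM-CSF-grown macrophages, had 497.7 FPKM in KO and 456.8 in WT at 3 h, against 556.2 in KO and 563.7 in WT at 0 h. Itgad (CD11d) had 36.6 to 46.5 FPKM over the 4 libraries. Neither passed the size rule in any comparison, so among the alpha chains of this chromosome 7 cluster Itgal was the only one past it.

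The makeup of the beta 2 alpha chain RNA shifted with Itgal. As a share of the summed FPKM of Itgam, Itgax, Itgal and Itgad, Itgal made up 14.1% in KO and 17.7% in WT at 3 h, against 2.47% in KO and 3.12% in WT at 0 h. Itgam made up 38.2% in KO and 34.5% in WT at 3 h, against 51.8% in KO and 46.5% in WT at 0 h, and Itgax varied only between 42.3% and 46.6%. The ratio of Itgam to Itgal was thus 2.71 in KO and 1.96 in WT at 3 h, against 20.9 in KO and 14.9 in WT at 0 h. These ratios within a library do not depend on how libraries are scaled. The summed alpha chain FPKM was 1.45 times that of Itgb2 in KO and 1.13 times in WT at 3 h, against 1.26 times in KO and 1.15 times in WT at 0 h. RNA ratios give no measure of the assembled receptors on the cell surface.

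**Figure D2:**
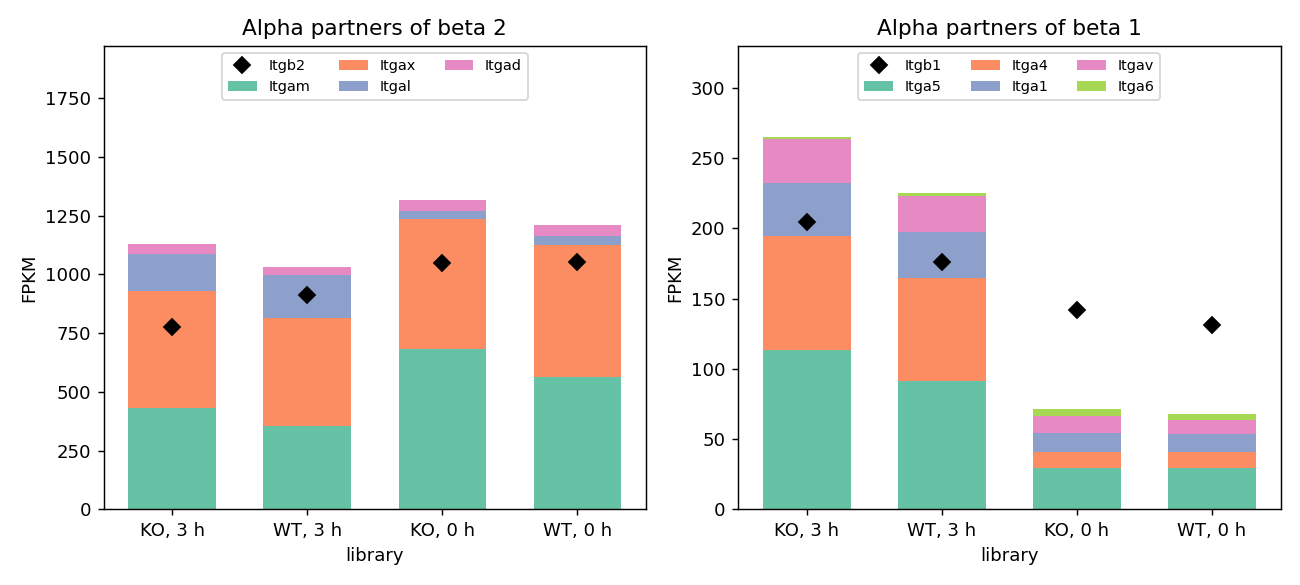
Stacked bars give the FPKM of integrin alpha chains in each library and the diamond that of the shared beta chain, for beta 2 (left) and beta 1 (right, where partners under 1 FPKM in every library are not drawn). On the left the Itgal segment is taller at 3 h and the Itgam segment smaller. On the right the alpha chain stack stands above the Itgb1 diamond at 3 h (1.30 times in KO, 1.28 in WT) and below it at 0 h (0.51 in KO, 0.52 in WT).

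Itgam and Itgal are the only ones of the 9 with several transcript entries. The Itgam entries NM_008401 and NM_001082960 took 75.3% and 24.7% of its FPKM in KO and 71.1% and 28.9% in WT at 3 h, against 76.3% and 23.7% in KO and 79.3% and 20.7% in WT at 0 h. The GENCODE models of these transcripts share 27 exons and differ at both ends and by 3 bases at the start of an internal exon (210 or 213 bases long), so few reads tell them apart. For Itgal, NM_001253873 had 110.9 FPKM in KO and 131.0 in WT at 3 h, against 17.3 in KO and 15.8 in WT at 0 h. NM_001253872 had 48.3 in KO and 51.2 in WT at 3 h, against 10.9 in KO and 8.46 in WT at 0 h. Both of these entries rose with the sum. The entry NM_008400 was listed at 0 in both 3 h libraries, against 4.31 in KO and 8.79 in WT at 0 h, and NM_001253874 was above 0 only in WT at 0 h (4.70). NM_008400 shares its GENCODE model with NM_001253873, and NM_001253874 shares its own with NM_001253872. The models of these pairs differ by 3 bases of 1 internal exon (87 or 90 bases long) and at their ends. They do not tell the entries within a pair apart, so an entry listed at 0 may be a failed or shifted assignment. With the highest entry alone in place of the sum, the KO minus WT difference of Itgal at 0 h turned from -0.21 to 0.12, so that difference rests on how reads were split.

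**Figure D3:**
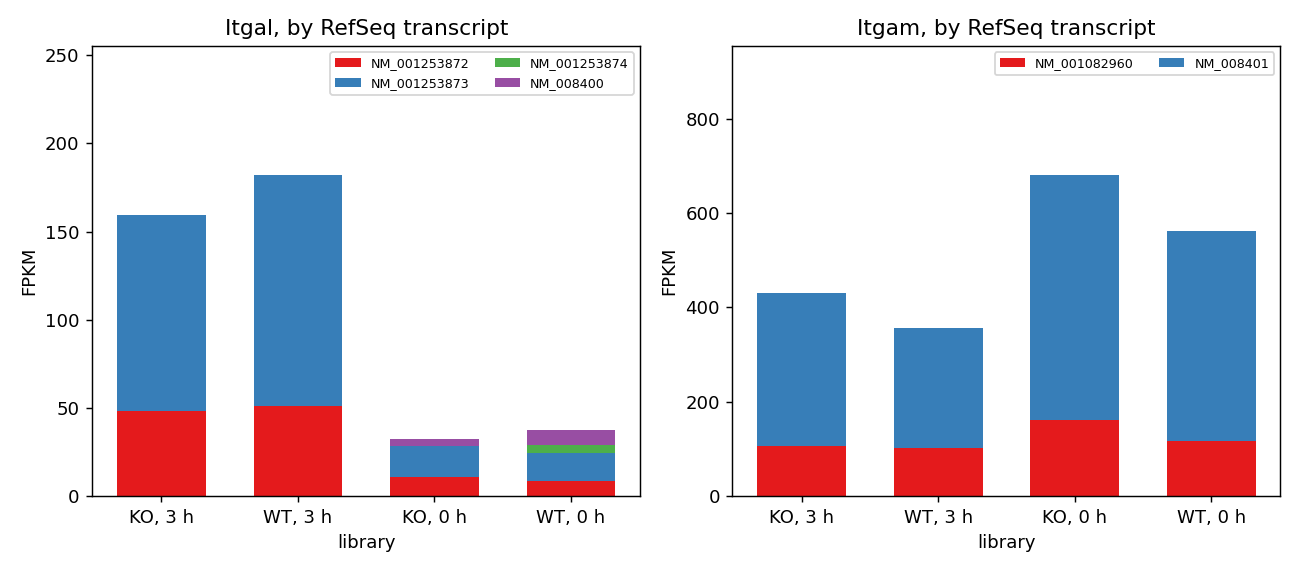
FPKM of each RefSeq transcript entry of Itgal (left) and Itgam (right), stacked by library. The Itgal entries NM_008400 and NM_001253874 appear in 0 h bars only, while the Itgam entries keep a similar split in all 4 libraries.

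Itga4 (CD49d), the alpha chain of the VCAM-1 and fibronectin receptor VLA-4 and of the gut-homing receptor alpha 4 beta 7, rose the most of the integrin chains among the 9 genes. Itga4 had 81.5 FPKM (80.2 to 82.9) in KO and 73.4 (71.8 to 75.1) in WT at 3 h, against 11.2 (10.7 to 11.6) in KO and 11.4 (10.9 to 11.9) in WT at 0 h. The genotypes were within their intervals at 0 h, and KO was the higher at 3 h. The ratio of 3 h to 0 h was 7.31 in KO (6.99 to 7.64) and 6.46 in WT (6.14 to 6.79). Itga4 lies on chromosome 2 at 79255426 to 79333114, where its end overlaps Cerkl by 624 bases, a gene listed at 0 in all 4 libraries. Its upstream window, shown because Itga4 rose strongly, spans chr2:79255176-79255425 (forward strand, GRCm38.p6).
Itga4: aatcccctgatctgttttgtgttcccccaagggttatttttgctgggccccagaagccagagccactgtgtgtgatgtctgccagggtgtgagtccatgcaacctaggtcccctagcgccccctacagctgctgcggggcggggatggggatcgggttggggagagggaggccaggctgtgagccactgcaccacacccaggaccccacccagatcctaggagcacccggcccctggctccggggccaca
No letters are in capitals because none of the 5 motifs searched on both strands occurs in these 250 bases. The motifs were the kappaB consensus, GGAANTTCC, TGANTCA, TTCNNNGAA and GAGGAA. That says only that these letters are not in this window.

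Itgav (CD51), whose alpha v chain pairs with several beta chains to bind RGD-containing matrix proteins and apoptotic cell bridges, rose more modestly. Itgav had 31.2 FPKM (30.0 to 32.3) in KO and 25.5 (24.4 to 26.5) in WT at 3 h, against 11.6 (10.99 to 12.2) in KO and 10.1 (9.49 to 10.7) in WT at 0 h. KO was above WT at each time by less than the distance between the times. The ratio of 3 h to 0 h was 2.68 in KO (2.52 to 2.86) and 2.52 in WT (2.34 to 2.71). Itgav lies on the same chromosome as Itga4, 4.39 Mb away, at 83722303 to 83806917. The upstream window of its RefSeq start, which lies inside the span listed for the gene, is chr2:83724147-83724396 (forward strand, GRCm38.p6), with GAGGAA in capitals on either strand.
Itgav: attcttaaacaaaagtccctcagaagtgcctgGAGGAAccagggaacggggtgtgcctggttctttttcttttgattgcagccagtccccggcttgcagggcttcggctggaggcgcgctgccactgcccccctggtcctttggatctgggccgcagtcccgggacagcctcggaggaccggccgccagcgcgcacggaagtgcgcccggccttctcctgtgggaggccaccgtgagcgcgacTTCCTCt
These matches lie 218 to 213 and 7 to 2 bases upstream, and the other 4 motifs do not occur in the window.

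Itgb1 (CD29), the beta chain shared by the fibronectin, collagen and laminin receptors, and Itgb7, the partner of alpha 4 and alpha E in lymphocytes, did not pass the size rule. Itgb1 had 204.5 FPKM (201.1 to 207.9) in KO and 176.4 (172.5 to 180.4) in WT at 3 h, against 142.1 (139.1 to 145.2) in KO and 130.9 (127.8 to 133.9) in WT at 0 h. Both 3 h libraries lay above both 0 h libraries, with a difference of 0.52 in KO and 0.43 in WT, and of 0.99 and 0.80 after rescaling. Itgb7 had 4.96 FPKM (4.37 to 5.54) in KO and 5.96 (5.19 to 6.73) in WT at 3 h, against 4.84 (4.21 to 5.47) in KO and 5.44 (4.73 to 6.15) in WT at 0 h. All 4 intervals of Itgb7 overlap. Their widths, about 13% of the value on each side, set the precision for this gene. The window before the Itgb1 start holds GAGGAA 9 to 4 bases upstream and that of Itgb7 holds none of the motifs.

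The alpha 4 chain therefore changed its ratio to both partners. Itga4 had 0.40 of the FPKM of Itgb1 in KO and 0.42 in WT at 3 h, against 0.079 in KO and 0.087 in WT at 0 h. It had 16.5 times the FPKM of Itgb7 in KO and 12.3 times in WT at 3 h, against 2.31 times in KO and 2.09 times in WT at 0 h. Itgb7 made up 2.37% to 3.99% of the summed FPKM of Itgb1 and Itgb7 over the 4 libraries. Madcam1, the vessel ligand of alpha 4 beta 7, and Itgae, the other alpha partner of Itgb7, were under 0.3 FPKM in each library.

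Icam1, the ligand of LFA-1 and Mac-1, stood at rank 4 of the 9 genes at 0 h and at rank 2 at 3 h. Icam1 had 577.3 FPKM (570.4 to 584.3) in KO and 630.9 (621.2 to 640.6) in WT at 3 h, against 75.6 (72.7 to 78.5) in KO and 73.2 (70.3 to 76.1) in WT at 0 h. The genotypes overlapped at 0 h, and WT was the higher at 3 h. The ratio of 3 h to 0 h was 7.64 in KO (7.34 to 7.95) and 8.62 in WT (8.27 to 9.0). Icam1 lies on chromosome 9 at 21015940 to 21028814. Its neighbours Icam4, 617 bases away, and Icam5, 3.2 kb away, had at most 1.39 FPKM, so of this gene cluster Icam1 was the only member above that level. The window before its start is chr9:21015690-21015939 (forward strand, GRCm38.p6), shown because it holds 2 matches, in capitals.
Icam1: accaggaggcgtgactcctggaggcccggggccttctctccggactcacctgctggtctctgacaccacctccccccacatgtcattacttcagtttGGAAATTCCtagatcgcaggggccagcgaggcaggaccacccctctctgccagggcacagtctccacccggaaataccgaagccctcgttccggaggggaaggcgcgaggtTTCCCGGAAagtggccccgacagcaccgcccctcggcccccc
The first is GGAAATTCC, 153 to 145 bases upstream, which fits the searched GGAANTTCC, the core of a variant kappaB site described in the human ICAM1 promoter. The second is TTCCCGGAA, 42 to 34 bases upstream, which fits TTCNNNGAA, a palindromic pattern known from cytokine-responsive promoters. Of the 32851 windows, 0.813% hold GGAANTTCC and 7.02% hold TTCNNNGAA. The kappaB consensus, in 7.25% of windows, and TGANTCA, the AP-1 type site that Batf family dimers bind, in 6.75%, occur in none of the 6 windows available. GGAANTTCC can lie within a kappaB consensus site, but no match overlapped another in these windows. The matches are a description, and neither binding nor use was measured here. RefSeq upstream windows were at hand for 6 of the 9 genes, and not for Itgb2, Itgal and Vcam1.

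Vcam1, the ligand of alpha 4 beta 1 integrin, had the highest ratio between times of the 9 genes in each genotype. Vcam1 had 90.4 FPKM (88.0 to 92.9) in KO and 122.6 (119.2 to 126.0) in WT at 3 h, against 10.0 (9.18 to 10.9) in KO and 8.06 (7.23 to 8.88) in WT at 0 h. WT was the higher at 3 h and KO the higher at 0 h, with intervals that did not overlap at either time. The ratio of 3 h to 0 h was 9.03 in KO (8.27 to 9.86) and 15.2 in WT (13.7 to 16.9). Only 1.72% of genes in KO and 1.10% in WT had as high a difference between times. Vcam1 lies on chromosome 3 at 116110020 to 116129688.

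The comparison of genotypes, which asks what Batf2 loss changes, gave no call among the 9 genes. At 3 h, 0 of 9 passed the size rule, against 1.47% of all genes tested, and at 0 h 0 of 9 passed, against 1.72%. The deposited intervals did not overlap for 8 of the 9 at 3 h and for 5 of the 9 at 0 h, against 27.7% and 20.8% of all genes. On each side the intervals reach from 0.846% of the value for Itgb2 to 13.1% for Itgb7, so they are narrow for the abundant genes. Without replicate cultures such differences cannot be set against the spread between cultures. At 3 h, KO minus WT ran from -0.43 for Vcam1 to 0.28 for Itgav on the log2(FPKM + 1) scale, with a median of -0.13, against -0.07 over all genes. At 0 h it ran from -0.21 for Itgal to 0.28 for Vcam1, with a median of 0.05, against -0.00 over all genes.

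By role, the integrin chains Itgam, Itgav and Itgb1 were higher in KO at both times. The ratio of KO to WT was 1.21 for Itgam at 3 h (1.18 to 1.24) and 1.21 at 0 h (1.19 to 1.23). For Itgav it was 1.22 at 3 h (1.16 to 1.29) and 1.15 at 0 h (1.06 to 1.24), and for Itgb1 1.16 at 3 h (1.13 to 1.19) and 1.09 at 0 h (1.05 to 1.12). Itgal was lower in KO, with a ratio of 0.87 at 3 h (0.85 to 0.90) and 0.86 at 0 h (0.81 to 0.92), although the 0 h difference of -0.21 turned to 0.12 with the highest entry alone. Itgb2 was lower in KO at 3 h only, with a ratio of 0.85 (0.84 to 0.86), against 0.99 at 0 h (0.98 to 1.01). The ratio of the ligand Icam1 was 0.92 at 3 h (0.90 to 0.93), and that of Vcam1 was 0.74 at 3 h (0.71 to 0.77) and 1.24 at 0 h (1.09 to 1.42). All of these stand below the 2-fold size rule, and a share of 10.9% of genes differed by as much as Vcam1 at 3 h.

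**Figure D4:**
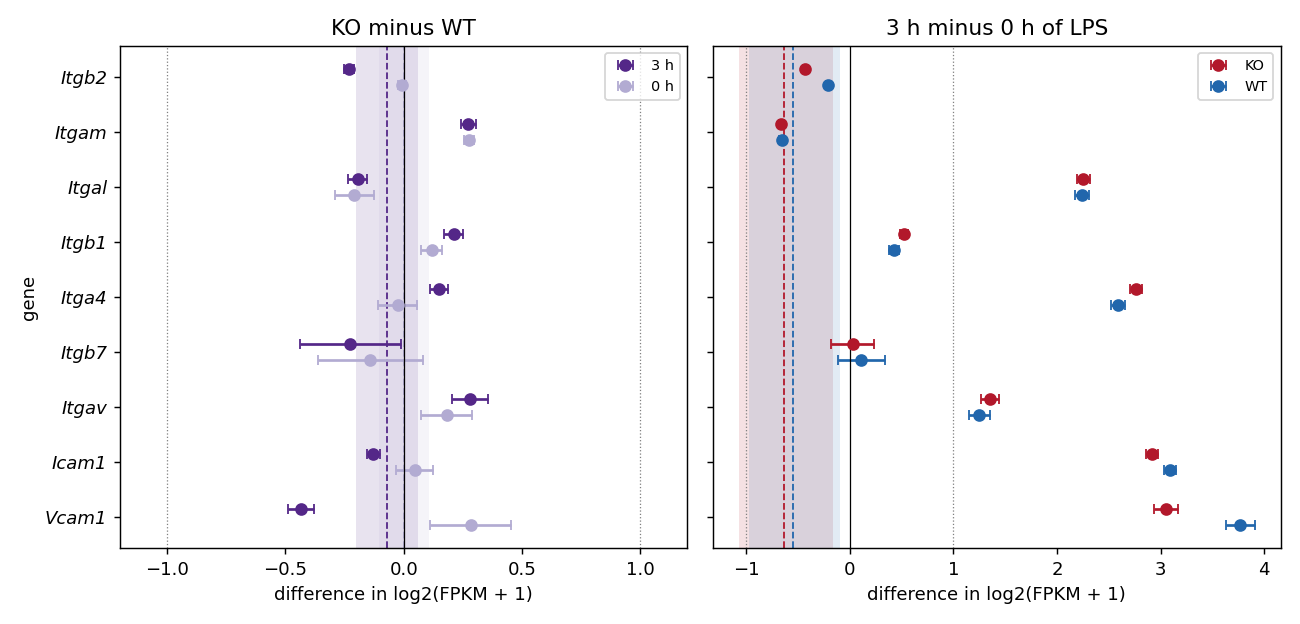
Differences in log2(FPKM + 1) of the 9 genes, KO minus WT at 3 h and 0 h (left) and 3 h minus 0 h in KO and WT (right), with bars for intervals propagated from the deposited ones. Dashed lines are the medians and shaded bands the quartiles of all genes tested, and dotted lines mark the size rule. On the left all points lie within 0.5 of 0, and on the right 5 genes lie beyond 1 in both genotypes while Itgb2 and Itgam lie below 0 as deposited (Itgb2 is above 0 after rescaling).

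The response to time was also compared between genotypes, as the difference at 3 h minus 0 h in KO less that in WT. None of the 9 passed the size rule for this quantity, against 2.46% of all genes tested. The median of the 9 was -0.00, against -0.08 over all genes. Vcam1 had the largest value, -0.72 (interval -0.90 to -0.54), and 4.76% of genes were as far from 0. Itgb2 had -0.22 (-0.25 to -0.20), Icam1 -0.17 (-0.26 to -0.09) and Itga4 0.17 (0.08 to 0.26). After rescaling these 3 stood at -0.13, -0.08 and 0.27, and Vcam1 at -0.62, so no order is given below Vcam1. For the other 5 genes the value lay between -0.08 and 0.10, except that Itgal stood at -0.36 with the highest entry alone. The 5 genes that rose in WT thus rose in KO too. Vcam1, Icam1 and Itgal reached a lower 3 h level in KO, and Itga4 and Itgav a higher one. Both the 0 h and the 3 h library of KO enter the Vcam1 value of -0.72, so it takes in the higher Vcam1 level of KO at 0 h.

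Genes with the most similar profile over the 4 libraries were looked up for the 5 genes whose levels spanned at least 1 on the log2 scale, among 8088 candidates. Likeness is the Euclidean distance between log2(FPKM + 1) profiles centred on their means, and 4 libraries hold few degrees of freedom. The closest to Itgal were Map3k8 (0.08), Kpna3 (0.09) and Wars (0.13). Itga4 was closest to Parp12 (0.08), Znfx1 (0.09) and Zc3h12c (0.10), and Itgav to Ppp4r2, Ttc39c and Ets2 (0.08 each). Icam1 was close to Phf11a (0.13) and Phf11d (0.16). The profile of Vcam1 had no neighbour as close, the first being Nampt (0.24), Il18bp (0.30) and Ifi213 (0.32). Il18bp had 55.4 FPKM in KO and 72.7 in WT at 3 h, against 4.43 in KO and 3.45 in WT at 0 h, so WT was above KO at 3 h and below it at 0 h, as for Vcam1.

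Other integrin chains were read from lists chosen by function. For the counts below, the shares over all genes tested were 7.85% that rose and 28% that fell in KO, and 7.55% and 23.2% in WT. Of 11 other alpha chains, 4 were tested, and 2 rose in both genotypes. Itga5, whose chain forms the fibronectin receptor, reached 113.3 FPKM in KO and 91.4 in WT at 3 h, against 29.4 in KO and 29.1 in WT at 0 h. Itga1, of a collagen receptor, had 37.6 in KO and 32.9 in WT at 3 h, against 13.9 in KO and 12.98 in WT at 0 h. Itga6, of laminin receptors, fell in KO (1.74 at 3 h against 5.06 at 0 h, a difference of -1.14 that was -0.80 after rescaling) and had 1.81 at 3 h against 4.22 at 0 h in WT, and Itga2b stayed between 1.17 and 1.63. With Itga4 and Itgav, this brought the summed FPKM of alpha chains that can pair with beta 1 to 266.5 in KO and 225.8 in WT at 3 h, against 72.6 in KO and 68.5 in WT at 0 h, while Itgb1 itself stayed below the size rule. Of 5 other beta chains, 3 were tested. Itgb8 rose, with 2.04 FPKM in KO and 3.08 in WT at 3 h, against 0.02 in KO and a listed 0 in WT at 0 h. Itgb5, a partner of alpha v, fell, with 8.68 in KO and 7.51 in WT at 3 h, against 23.0 in KO and 22.3 in WT at 0 h, although in KO its difference was -0.87 after rescaling, short of the rule. Itgb3, another partner of alpha v, had 2.14 in KO and 2.22 in WT at 3 h, against 4.14 in KO and 3.64 in WT at 0 h. None of these chains passed the size rule between genotypes.

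Of 11 other immunoglobulin superfamily ligands, 5 were tested between times in KO and 6 in WT, and 1 passed the rule. The shares of all genes that rose were 7.85% in KO and 7.55% in WT. Cd47, a ligand of thrombospondin and partner of integrins, rose in KO, with 97.8 FPKM at 3 h against 45.6 at 0 h, and had 83.8 against 43.8 in WT. After rescaling, Cd47 stood at 1.55 in KO and 1.29 in WT, F11r (JAM-A) at 1.17 in KO and 1.02 in WT, and Icam4 at 1.11 in WT. Alcam had 60.9 to 68.9 FPKM over the 4 libraries, and Icam2 had 1.42 to 3.83. Of the selectins, which start leukocyte rolling, Sele and Selp were under 1 FPKM in every library. Of 13 selectin ligands and the enzymes that glycosylate or sulfate them, 10 were tested, and 7 fell in KO and 5 in WT, with a median difference of -1.21 in KO and -0.98 in WT. Of all genes tested, 28% fell in KO and 23.2% in WT, with medians of -0.64 in KO and -0.54 in WT. Selplg (PSGL-1), the main leukocyte ligand of P-selectin, had 73.5 FPKM in KO and 92.7 in WT at 3 h, against 162.4 in KO and 195.2 in WT at 0 h. Gcnt1, which builds the core 2 branch of its sugar chains, had 1.01 in KO and 2.24 in WT at 3 h, against 16.0 in KO and 19.0 in WT at 0 h. Cd24a, St3gal4 and B4galt1 also fell in both genotypes, Fut7 and Tpst2 in KO, and Tpst1 rose in WT. After rescaling, Selplg stood at -0.67 in KO and -0.70 in WT, short of the rule, Cd24a, St3gal4 and Tpst2 in KO (-0.80) also fell short, and Tpst1 stood at 1.401 in KO and 1.38 in WT, while Gcnt1 stayed at -2.74 in KO and -2.31 in WT and B4galt1 at -1.38 in KO and -1.22 in WT.

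Of 26 listed proteins that switch integrins on, or link them to actin, 23 were tested in KO and 24 in WT, with 1 that rose and 4 that fell in KO, and 1 and 3 in WT. Of all genes tested, 7.85% rose and 28% fell in KO, and 7.55% and 23.2% in WT. The median was -0.52 in KO and -0.40 in WT, near that of all genes. Fyb (ADAP), an adaptor of integrin activation, rose to 37.4 FPKM in KO and 51.6 in WT at 3 h, against 16.4 in KO and 13.8 in WT at 0 h. Rassf5 (RAPL), which binds Rap1 and the Itgal chain, fell to 4.43 in KO and 5.77 in WT at 3 h, against 17.2 in KO and 17.6 in WT at 0 h. Ptk2 and Parvb also fell in both, and Rasgrp2 in KO, although Ptk2 in KO (-0.75) and Parvb in WT (-0.95) were short of 1 after rescaling. Rap1b, a small GTPase upstream of talin, had 352.5 FPKM in KO and 372.0 in WT at 3 h, against 204.1 in KO and 189.2 in WT at 0 h, and Zyx (zyxin), a focal adhesion protein, had 662.4 in KO and 817.8 in WT at 3 h, against 446.8 in KO and 512.9 in WT at 0 h, both below the rule. After rescaling, Rap1b stood at 1.25 in KO and 1.34 in WT, Zyx at 1.04 in both, and Ptk2b (PYK2) at 1.05 in KO and 1.12 in WT. Tln1 (talin), which binds beta chain tails, had 67.1 FPKM in KO and 69.9 in WT at 3 h, against 96.4 in KO and 92.1 in WT at 0 h. Fermt3 (kindlin-3) had 61.3 in KO and 72.9 in WT at 3 h, against 100.02 in KO and 101.6 in WT at 0 h.

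**Figure D5:**
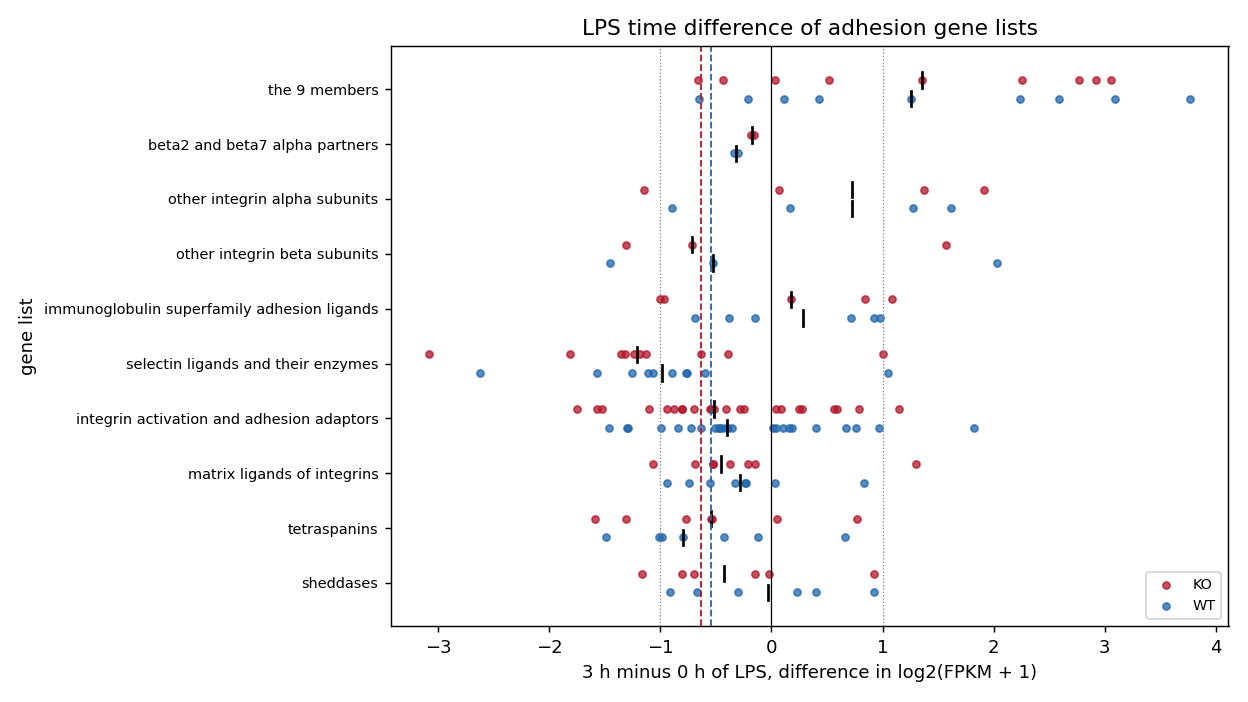
Difference in log2(FPKM + 1) between 3 h and 0 h for each tested gene of the 9 and of 9 further adhesion lists, KO above WT in each row, with black ticks for list medians and dashed lines for the medians of all genes in KO and WT. The 9 genes have medians of 1.35 in KO and 1.25 in WT, and the selectin ligand list has -1.21 in KO and -0.98 in WT.

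Markers of other cells that carry these molecules were read beside the results. Neutrophils and their precursors express Itgam, Itgb2 and Itgal, and 11 of 12 markers were listed, none at 0. Their summed FPKM was 5106 in KO and 5308 in WT at 3 h, against 8783 in KO and 3599 in WT at 0 h. At 0 h all 11 were higher in KO and 5 passed the size rule, among them S100a8 and Ltf. Over all genes tested at 0 h, 49.9% were higher in KO and 1.72% passed the rule in either direction. The KO minus WT values at 0 h above come with this difference in neutrophil markers, and its part in them was not tested. At 3 h 4 of the 10 tested were higher in KO, against 34.4% of all genes. Of 7 stromal markers, all listed, 6 were tested at 0 h and higher in KO, 2 of them (Sparc and Col3a1) past the rule, with sums of 54.5 in KO and 34.5 in WT at 3 h, against 75.2 in KO and 33.4 in WT at 0 h. Stromal cells can express Vcam1, Itgb1 and Itgav, and that part was not tested either. Of 6 endothelial markers, Kdr rose, to 2.27 FPKM in KO and 2.12 in WT at 3 h, against 0.41 in KO and 0.36 in WT at 0 h, and Cdh5 had 0.34 in KO and 0.69 in WT at 3 h, against 1.44 in KO and 1.52 in WT at 0 h. Of the rest, Tek, Tie1, Cldn5 and Robo4 were under 0.3 FPKM in every library, and the sum was 2.83 in KO and 2.90 in WT at 3 h, against 2.23 in KO and 2.07 in WT at 0 h. Mast cells and basophils carry Itga4 and Itgb7, and their 7 markers summed to 23.4 FPKM in KO and 15.3 in WT at 3 h, against 11.8 in KO and 6.18 in WT at 0 h. Hdc, the histamine-forming enzyme, made most of the 3 h sums, with 16.9 in KO and 10.8 in WT, against 3.86 in KO and 1.26 in WT at 0 h. Mcpt8, a basophil protease, went the other way, with 1.17 in KO and 0.96 in WT at 3 h, against 3.97 in KO and 1.69 in WT at 0 h. The 8 dendritic cell markers summed to 45.2 in KO and 37.4 in WT at 3 h, against 11.5 in KO and 20.6 in WT at 0 h. Ccr7 gave 35.2 of the 3 h sum in KO and 18.2 of that in WT, while Clec9a was lower in KO at 3 h, past the rule, with 2.16 against 9.68 in WT. The 5 platelet markers, of which Pf4 was by far the highest, summed to 305.2 in KO and 121.6 in WT at 3 h, against 282.8 in KO and 134.3 in WT at 0 h. Pf4 was higher in KO past the rule at both times, and Ppbp was higher in KO at both times under the rule. At 3 h Gp9 (0.51 in KO, 0.84 in WT) and Treml1 (1.12 in KO, 1.16 in WT) were not higher in KO. Gp1bb was listed at 0 in every library. At 3 h Mmp8, Gata2 and the macrophage marker Cd14 were also higher in KO past the rule, which 1.47% of all genes passed. At 0 h Hdc was higher and Cd209a lower in KO, past the rule. The 5 B cell markers summed to at most 1.02 FPKM. Of the 5 T cell markers listed, Cd3e, Cd3d and Cd3g stayed under 0.5 FPKM. Cd247 had 25.8 in KO and 16.3 in WT at 3 h and a listed 0 in both 0 h libraries. Lck had 1.12 in KO and 1.12 in WT at 3 h, against 0.13 in KO and 0.10 in WT at 0 h, under the rule. The part of these cells in the 9 genes was not tested.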

How the data were processed

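RNA-seq was measured in 4 libraries of mouse macrophages, read as strand-specific single reads per the labels. The authors deposited 1 table per library with FPKM, a lower and an upper limit of FPKM and a status for each RefSeq transcript entry. Per the submitters' processing notes, TopHat2, Bowtie, SAMtools and Cufflinks were used with mm9, with each version not given in the sources used here. Loci in the files fit GRCm38: 95.7% of entries, and all 13 entries of the 9 genes, fell within the GRCm38 span of the gene they name.

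Each table listed 33841 entries. Gene names came from RefSeq accessions (33437 entries), GENCODE vM21 (187) or position (79), and 138 kept their accession. FPKM was summed over the entries of a symbol, and intervals were combined in quadrature. Differences used log2(FPKM + 1), which understates changes of low genes. A gene passed the size rule with a difference of at least 1, 1 FPKM or more in either library, an OK status in both and deposited intervals that did not overlap. The difference between responses needed an absolute value of at least 1 and a propagated interval that excludes 0. The rules were tested on simulated data. With 1 library per group, no p-value or standard error was computed.

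Libraries were grouped by the genotype and time in their labels. The 9 genes, the further lists and the rules were chosen with earlier results of these data known. Named genes were the 9, Batf2, list members past the size rule with up to 4 more by mean FPKM, and the 3 nearest profiles among named genes with an FPKM of at least 5. A few genes of the lists are named to show that they are low. Alternatives were a pseudocount of 0.1 or 5, no filter, an FPKM of at least 5, median-ratio rescaling over 5605 genes, and the highest entry in place of the sum. Python 3.11.15, numpy 2.4.6, pandas 2.3.3 and matplotlib 3.10.9 were used. Upstream windows are RefSeq sequences on GRCm38.p6. Some genes that these rules name are left out here. Ly6g and Trac were not matched to an entry.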

Additional observations from a re-analysis of the deposited data

Results flagged for a closer look

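Vcam1 is given again because its genotype difference pointed in opposite directions at the 2 times. On the log2(FPKM + 1) scale KO minus WT was -0.43 at 3 h (90.4 FPKM in KO against 122.6 in WT) and 0.28 at 0 h (10.0 in KO against 8.06 in WT), and the deposited intervals did not overlap at either time. With 1 library per group the difference between the times was not tested. At 0 h the level was near 10 FPKM and the interval reached 10.3% of the value on each side in WT, against 2.78% in WT at 3 h. Both signs held under each alternative that was run.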

How the results depend on the processing

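Every alternative left 5 of the 9 genes past the size rule as higher at 3 h in each genotype, and none past it between genotypes. Without the filter on low values the counts for the 4 pairwise comparisons did not change, and 169 genes in place of 168 were lower for the difference between responses. Counts over all genes moved by over 1.5 times in these cases. With a pseudocount of 0.1, KO at 0 h had 272 genes higher and 77 lower (144 and 42 as reported), 135 and 145 at 3 h (73 and 71), and 179 and 337 for the difference between responses (106 and 168). With a pseudocount of 5 these pairs were 48 and 16, 27 and 20, and 57 and 77, and 960 genes in KO and 792 in WT were lower at 3 h than at 0 h (3065 and 2516 as reported). An FPKM of at least 5 gave 87 higher at 0 h, and 46 and 43 at 3 h. That filter also left fewer genes tested, 7909 in place of 10843 at 0 h and 6434 in place of 9806 at 3 h. The highest entry gave 116 lower at 0 h, 147 and 153 at 3 h, and 235 and 322 for the responses. Rescaling gave 1490 lower between times in KO and 1400 in WT. The share of higher among calls between times was 21.9% in KO and 24.6% in WT as reported, 44.9% and 44.1% after rescaling, and 39.2% and 42.8% with a pseudocount of 5.

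A few small differences changed sign. For the difference between responses, Itgam moved from -0.00 to 0.09 after rescaling and to 0.13 with the highest entry, and Itgal from 0.01 to -0.36 with the highest entry and to -0.00 with a pseudocount of 5. The signs of Itgb2 between times and of Itgal between genotypes at 0 h are treated with those genes. The cause was not tested, beyond the construction of each alternative.

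No paired analysis was possible because the labels give no replicate numbers and each group holds 1 library. The spread between cultures is therefore unknown, and differences of the size seen between genotypes cannot be set against it. Intervals cover counting and assignment error only. Total reads are unknown.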

Other observations

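Of 12 listed matrix ligands of integrins, 8 were tested. Tnc (tenascin-C), a matrix protein bound by integrins that contain alpha v, passed the size rule between genotypes at 3 h, at 23.6 FPKM in KO against 8.79 in WT, and had 8.98 in KO against 4.49 in WT at 0 h. It also rose between times in KO, by 1.30 on the log2 scale, and had 0.83 in WT. Of the genes tested in the 10 further lists, it alone passed the rule between genotypes at 3 h, a share near the 1.47% of all genes. None of them passed at 0 h, against 1.72% of all genes. Thbs1 (thrombospondin 1) had 123.8 FPKM in KO and 79.2 in WT at 3 h, and 143.1 in KO and 77.6 in WT at 0 h, under the rule. Spp1 (osteopontin), a ligand of alpha v and alpha 4 integrins, was the most abundant of the list, at 2304 in KO and 2012 in WT at 3 h, and 3309 in KO and 2960 in WT at 0 h. Fn1, Mfge8 and Tgfbi did not pass the rule between genotypes. Fn1 (fibronectin) had 111.6 in KO and 141.4 in WT at 3 h, and 161.3 in KO and 166.3 in WT at 0 h. Mfge8, a ligand of alpha v integrins, had 254.1 in KO and 254.3 in WT at 3 h, and 330.5 in KO and 427.0 in WT at 0 h. Tgfbi had 82.3 in KO and 133.9 in WT at 3 h, and 173.7 in KO and 257.1 in WT at 0 h, and fell between times in KO. The stromal marker sums given in the report were also higher in KO, and their part in the Tnc and Thbs1 values was not tested.

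Tetraspanins organise integrins in the membrane, and Cd151, a direct integrin partner, fell in both genotypes, with 8.80 FPKM in KO and 9.5 in WT at 3 h, against 28.4 in KO and 28.5 in WT at 0 h. Cd81 fell in KO and Cd37 in WT, and 4 of the 7 passed in neither. In each genotype 2 of the 7 fell, near the share of all genes tested, 28% in KO and 23.2% in WT. Of 6 sheddases that can release adhesion molecules from the surface, Adam8 fell in KO, with 169.1 FPKM at 3 h against 381.7 at 0 h. Adam17, which is known to cleave VCAM-1, had 105.1 in KO and 100.8 in WT at 3 h, against 55.1 in KO and 52.9 in WT at 0 h, and stayed below the rule at a difference of 0.92 in both. After rescaling Cd151 stayed past 1 (-1.15 in KO and -1.14 in WT), while Cd81 (-0.85), Adam8 (-0.70) and Tgfbi (-0.60) in KO and Cd37 in WT (-0.65) fell short of it, and Adam17 reached 1.38 in KO and 1.29 in WT.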
